A study of Mus musculus with 12 samples.

Results

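The eicosanoid synthesis enzymes are the proteins that turn arachidonic acid, a fatty acid held in membrane phospholipids, into prostaglandins and leukotrienes. Their 10 genes (Pla2g4a, Ptgs1, Ptgs2, Ptges, Alox5, Alox5ap, Lta4h, Ltc4s, Alox12 and Alox15) were chosen by symbol, and all 10 were found among the 55401 genes of both count tables. The RNA came from tumor-associated macrophages (TAMs), sorted from subcutaneous B16 melanoma tumors in C57BL/6 mice. By the study's methods these were CD45+CD11b+F4/80+ cells without Ly6C or Ly6G. The study asked how AMPK, an energy-sensing kinase, relates to TAM survival as the tumor grows. Its first comparison set 3 AMPK-KO samples (AMPKfl/flLyz2cre/cre) against 3 WT samples (AMPKfl/fl), both from day 15 by the study's methods. Its second set 3 late-stage samples from day 15 against 3 early-stage samples from day 8, all labelled WT.

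Both AMPK groups carry the floxed AMPKα1 allele, and the cre, driven by Lyz2, acts across myeloid cells rather than in TAMs alone. The genotype labels of AMPK-KO replicates 2 and 3 name Lyz3 and Lyz4 in place of Lyz2. No group received a treatment. Mice were 5 weeks old by the study's methods, and the number of mice pooled for a sample was not given in the sources used here. The labels do not say that replicates came from separate animals, so the p-values measure only the spread between these samples, which may be technical.

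Eicosanoid synthesis begins when a phospholipase frees arachidonic acid from the membrane. Cyclooxygenases convert it to prostaglandin H, from which terminal synthases make PGE2 and other prostanoids, whereas 5-lipoxygenase, presented with its substrate by the protein FLAP, makes leukotriene A4. Leukotriene A4 is then hydrolyzed to leukotriene B4, which attracts neutrophils, or joined to glutathione to give leukotriene C4, the first of the cysteinyl leukotrienes. Macrophages can make both classes, and PGE2 in tumors is known for dampening T cell and NK cell responses.

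The Ptges, Ltc4s and Ptgs2 promoter sequences are shown because the first pair of genes had the largest fold changes of the group and Ptgs2 encodes the enzyme upstream of PTGES. They are RefSeq windows on GRCm38.p6, read along the gene's strand and ending at the base before the RefSeq start, and capitals mark matches to the motifs described after them. The Ptges window is chr2:30903298-30903547 (minus strand), the Ptgs2 window chr1:150099781-150100030 (plus strand) and the Ltc4s window chr11:50238617-50238782 (minus strand), which leaves out 84 bases that are exon in GENCODE M21.
Ptges: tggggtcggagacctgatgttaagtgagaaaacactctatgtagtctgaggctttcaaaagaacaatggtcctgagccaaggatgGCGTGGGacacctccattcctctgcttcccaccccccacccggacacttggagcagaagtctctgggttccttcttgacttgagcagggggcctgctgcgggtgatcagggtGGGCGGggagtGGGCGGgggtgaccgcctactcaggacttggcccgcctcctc
Ptgs2: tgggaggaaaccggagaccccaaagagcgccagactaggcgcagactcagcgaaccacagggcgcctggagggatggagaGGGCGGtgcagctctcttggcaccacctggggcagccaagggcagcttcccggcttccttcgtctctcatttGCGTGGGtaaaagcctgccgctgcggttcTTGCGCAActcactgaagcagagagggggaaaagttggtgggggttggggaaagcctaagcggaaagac
Ltc4s: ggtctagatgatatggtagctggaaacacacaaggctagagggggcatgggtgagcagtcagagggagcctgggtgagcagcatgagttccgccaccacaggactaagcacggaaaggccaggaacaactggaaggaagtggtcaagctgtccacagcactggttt

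RefSeq windows of 250 bases were matched for 8 of the 10 genes, with Alox5ap and Alox15 unmatched, and 6 motifs were searched on both strands. Ptges and Ptgs2 were the 2 members with the Egr1 core GCGTGGG, at 165 and 98 bases before the start, a motif that 4.3% of all 32851 windows held. Both also held the GC box GGGCGG, with 2 matches in Ptges, which occurred in 32.7% of all windows. The C/EBP motif TTGCNNAA was found among the members in Ptgs2 alone, 69 bases before the start, and in 9.56% of all windows. Ltc4s held none of the 6, which also included the TATA box TATAAA (12.4% of windows), the CCAAT box (33.8%) and the AP-1 motif TGANTCA (6.75%). No motif overlapped another in the printed windows, and these matches describe letters, not bound sites.

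Library totals ranged from 71019494 to 84470374 counts. Prkaa1, which encodes AMPKα1, had 4535 to 5165 counts in WT and 3285 to 3467 in AMPK-KO (64.98 ± 3.34 and 42.9 ± 3.53 CPM, SD, n = 3, adjusted p = 2.3e-04), so much of its RNA was still counted in the AMPK-KO samples. Lyz2, which the cre allele disrupts, was as low in WT (671 to 975 counts) as in AMPK-KO (676 to 1088 counts), although the WT labels give no cre, while early-stage samples had 204851 to 249165 counts and late-stage samples 88212 to 93224. The Y-linked genes summed to 9229 to 12183 counts in the WT and AMPK-KO samples, 3435 to 4035 in the early-stage samples and 0 to 4 in the late-stage samples, whereas the study's methods name female mice. Stage and the sex of the cells therefore cannot be told apart. The 11 macrophage markers, Lyz2 included, summed to 13164 to 15745.2 CPM over the 12 libraries.

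Levels are CPM, the gene's counts scaled to library size by TMM within each table, given as mean ± SD over the 3 samples of a group, and a gene was called changed at an adjusted p under 0.05 in edgeR's quasi-likelihood test over all genes tested. In a bulk sample, fewer cells of a type and less RNA per cell cannot be told apart.

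Per kilobase of exon, Alox5ap, which encodes FLAP, had the highest level of the 10 genes in all 4 groups, with 359.5 ± 20.6 CPM per kb in WT, 308.3 in AMPK-KO, 287.7 in early-stage and 238.5 in late-stage TAMs. Ptgs2 came next in each group (59.9, 64.7, 54.7 and 37.5 CPM per kb). In WT these were followed by Ltc4s (32.6), Lta4h (12.9), Pla2g4a (9.63), Alox5 (9.47), Ptgs1 (2.94), Ptges (2.2) and Alox15 (0.237), and Pla2g4a and Alox5 overlapped. The places of Ltc4s, Lta4h, Pla2g4a, Alox5, Ptgs1 and Ptges in this order differed between groups. In AMPK-KO, Ltc4s (13.5) overlapped Lta4h (12.95), and Ptges (4.71) stood above Ptgs1 (2.91). In early-stage TAMs, Lta4h (14.8) preceded Ltc4s (11) and Pla2g4a (10.9), which overlapped, and Ptges (3.98) overlapped Alox5 (3.91). In late-stage TAMs, Lta4h (12.7) overlapped Pla2g4a (11.8), Ltc4s stood at 5.4 and Ptges at 0.657, above Alox15 (0.286) and Alox12 only. Lengths were the merged exons of all annotated transcripts, 6102 bases for Lta4h and 1014 for Ltc4s. The order between genes rests on that choice, and other lengths were not tried.

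**Figure D1:**
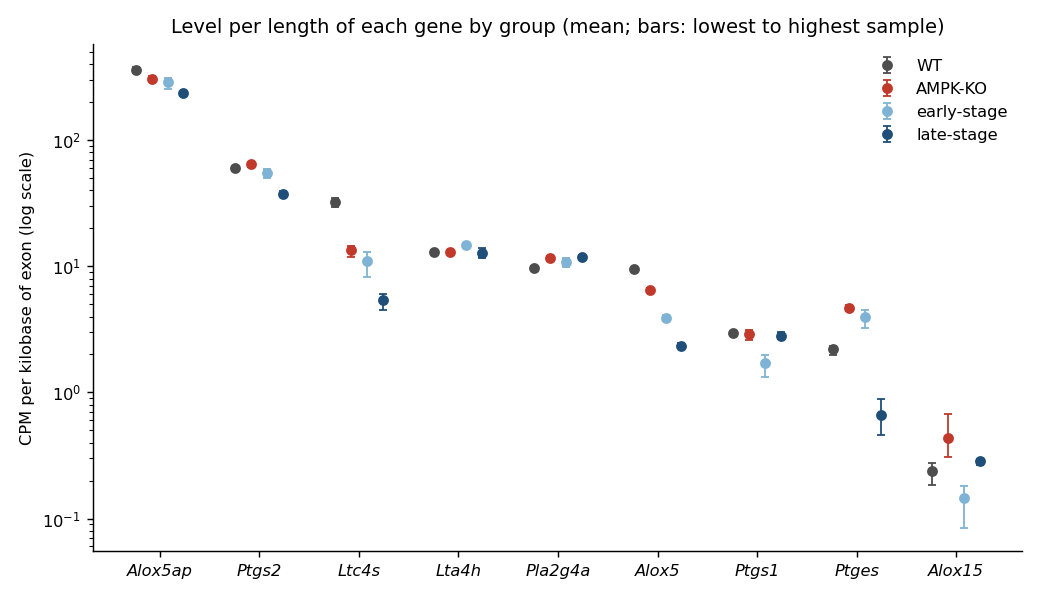
Level per kilobase of exon (TMM-scaled CPM per kb, log axis) in the 4 groups for the genes other than Alox12. Points are the mean of 3 samples, and bars run from the lowest to the highest sample. Alox5ap and Ptgs2 lead in each group. Ptges stands at 2.2 CPM per kb in WT and 4.71 in AMPK-KO, and at 3.98 in early-stage and 0.657 in late-stage TAMs.

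In AMPK-KO TAMs, the gene of the PGE2 synthase, Ptges, rose 2.14-fold over WT, and the leukotriene genes Ltc4s and Alox5 fell to 0.414 and 0.689 of the WT level. The phospholipase gene Pla2g4a rose by less and Alox5ap fell by less. Of the 9 members tested, 5 were called, 2 higher and 3 lower, where 21.1% of all 17532 genes tested were called (11.3% higher and 9.78% lower). The groups did not overlap for 6 of the 9, against 37.2% of all genes. Ptges (higher) and Ltc4s (lower) also passed an absolute log2 fold change of 1, as 3.34% of all genes did (2.05% higher and 1.28% lower). The median log2 fold change was 0.001 over the members and -0.004 over all genes.

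Pla2g4a encodes cytosolic phospholipase A2, which frees arachidonic acid from phospholipids. It had 59.4, 61.2 and 64.1 CPM in the WT samples and 76.7, 76.6 and 70.5 CPM in the AMPK-KO samples. The groups did not overlap, and the difference was 0.28 on the log2 scale (SE 0.06, adjusted p = 0.00784), an increase of 1.21-fold.

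The cyclooxygenase genes did not pass the test. Ptgs1, which encodes the constitutive COX-1, had 11.8, 11.1 and 11.3 CPM in WT and 12.1, 10 and 11.8 CPM in AMPK-KO. The samples overlapped, with a log2 fold change of -0.02 (95% confidence interval -0.25 to 0.22, adjusted p = 0.941). Ptgs2, which encodes the inducible COX-2, had 278.2, 259.7 and 284.5 CPM in WT and 308.3, 298.6 and 282.4 CPM in AMPK-KO. Here too the groups overlapped, and the log2 fold change of 0.11 had an interval of -0.01 to 0.23 (adjusted p = 0.172).

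Ptges encodes microsomal prostaglandin E synthase 1, the inducible enzyme that makes PGE2 downstream of COX-2. The WT samples had 7.74, 8.98 and 9.2 CPM, from 558 to 750 counts. The AMPK-KO samples had 18.8, 19.4 and 17.4 CPM, from 1390 to 1556 counts. Each AMPK-KO sample thus stood above each WT sample, and the log2 fold change was 1.10 (SE 0.10, adjusted p = 4.1e-05).

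Alox5 encodes 5-lipoxygenase, which makes leukotriene A4. Its levels lay close together within groups, at 38.9, 38.6 and 39.1 CPM in WT and 27.9, 25.8 and 26.7 CPM in AMPK-KO. Alox5 fell by 0.54 on the log2 scale (SE 0.07, adjusted p = 2.2e-04), with no overlap. Its partner Alox5ap had 482.6, 541 and 507.8 CPM in WT against 417.6, 438.7 and 457.1 CPM in AMPK-KO. The groups stood apart by little more than their spread, and the log2 fold change of -0.22 (SE 0.05, adjusted p = 0.0155) lost its call when WT replicate 2 or 3 or AMPK-KO replicate 1 or 2 was left out (adjusted p = 0.0543, 0.0570, 0.0715 and 0.0654).

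The 2 enzymes that share leukotriene A4 as substrate differed. Lta4h, whose product makes leukotriene B4, had 80.4, 81.9 and 74.5 CPM in WT and 79.9, 79.9 and 77.3 CPM in AMPK-KO. These ranges overlapped, and the log2 fold change was 0.00 with an interval of -0.12 to 0.13 (adjusted p = 0.991). Ltc4s, which encodes leukotriene C4 synthase, had 30.1, 33.5 and 35.6 CPM in WT and 12.1, 14.3 and 14.6 CPM in AMPK-KO. The lowest WT sample was above the highest AMPK-KO sample, and the log2 fold change was -1.27 (SE 0.10, adjusted p = 1.2e-05), the lowest adjusted p among the members in this comparison.

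Ltc4s shares 268 of its 1014 exon bases with the antisense gene Gm26542, and as the strand setting of the counting is not given, reads of the pair cannot be told apart there. Gm26542 had 85 to 151 counts in WT and 45 to 56 in AMPK-KO, far fewer than the 2165 to 2908 and 896 to 1181 counts of Ltc4s. Alox5ap shares 189 of 1420 exon bases with the antisense gene Gm19719, which had at most 375 counts in any library, against at least 27029 for Alox5ap. Gm43621, which shares 148 exon bases with Ptgs1, had at most 12 counts.

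The remaining lipoxygenase genes were rarely counted. Alox12, which encodes the 12-lipoxygenase of platelets, had 0, 7 and 19 counts in WT and 0, 8 and 11 in AMPK-KO, and did not pass the filter on low counts. A count of 0 allows up to 3. Alox15, which encodes 12/15-lipoxygenase, had 44, 49 and 37 counts in WT and 59, 61 and 133 in AMPK-KO. Each AMPK-KO sample was higher, but the log2 fold change of 0.88 (SE 0.40) did not pass the test (adjusted p = 0.160), and it was 0.42 without AMPK-KO replicate 3.

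**Figure D2:**
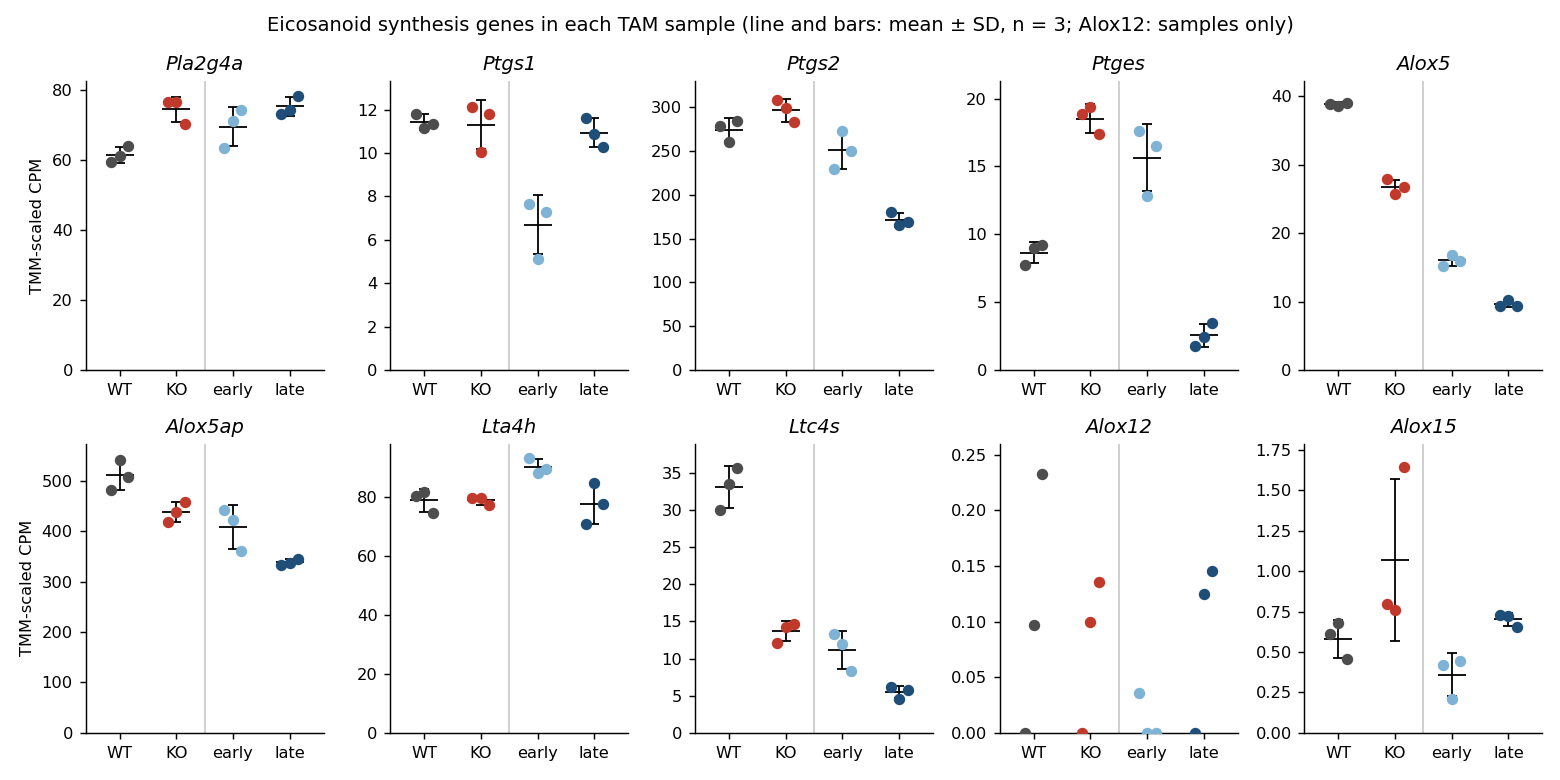
TMM-scaled CPM of the 10 genes in every sample, with WT and AMPK-KO (KO) left and early-stage and late-stage right of the grey line, which separates tables scaled on their own. Points are samples, and lines with bars are the mean and SD of 3. Ptges lies at 7.74 to 9.2 CPM in WT and 17.4 to 19.4 in AMPK-KO, but at 12.9 to 17.6 in early-stage and 1.8 to 3.49 in late-stage TAMs.

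In late-stage TAMs, Ptges fell 6.07-fold below its early-stage level, and Ptgs2, Alox5 and Ltc4s fell as well, while Ptgs1 was the member called higher. Of the 9 members tested, 5 were called, 1 higher and 4 lower, where 9.18% of all 17630 genes tested were called (4.31% higher and 4.88% lower). Ptges and Ltc4s, both lower, also passed an absolute log2 fold change of 1, as 1.87% of all genes did (0.601% higher and 1.26% lower). The groups did not overlap for 8 of the 9, against 31.2% of all genes. The members' median log2 fold change was -0.27, that of all genes 0.003. The number called was 3 without early-stage replicate 2 and 3 without late-stage replicate 2.

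Pla2g4a had 63.4, 71.2 and 74.3 CPM in the early-stage samples and 73.2, 74.5 and 78.5 CPM in the late-stage samples. The groups overlapped, and its log2 fold change of 0.11 (SE 0.08) did not pass the test (adjusted p = 0.439).

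The cyclooxygenase genes moved in opposite directions. Ptgs1 had 7.64, 5.13 and 7.3 CPM in early-stage and 11.6, 10.9 and 10.3 CPM in late-stage TAMs. Without overlap it rose by 0.71 on the log2 scale (SE 0.16, adjusted p = 0.0264), a call that was lost without a filter on low counts (adjusted p = 0.0686) and when early-stage replicate 2 (0.0803) or late-stage replicate 1 (0.103), 2 (0.0958) or 3 (0.0774) was left out. Ptgs2 had 229.3, 272 and 250.2 CPM in early-stage and 180.5, 165.9 and 168.3 CPM in late-stage TAMs. It fell by 0.55 on the log2 scale (SE 0.08, adjusted p = 0.00290), and no early-stage sample was as low as the highest late-stage sample. The ratio of Ptgs2 to Ptgs1 per kilobase was 25.4, 44.9 and 29.1 in the early-stage samples and 13.2, 12.9 and 13.9 in the late-stage samples. In the other table it was 20, 19.8 and 21.3 in WT and 21.6, 25.2 and 20.3 in AMPK-KO.

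Ptges had 17.6, 12.9 and 16.5 CPM in the early-stage samples, from 995 to 1456 counts. In the late-stage samples it had 1.8, 2.46 and 3.49 CPM, from 151 to 288 counts. The lowest early-stage sample was well above the highest late-stage sample, and the log2 fold change of -2.60 (SE 0.24, adjusted p = 1.8e-04) was the largest in size of any member in either comparison.

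In the 5-lipoxygenase branch, Alox5 and Ltc4s were called lower at the late stage and Alox5ap and Lta4h were not called. Alox5 had 15.2, 16.9 and 16 CPM in early-stage and 9.32, 10.2 and 9.43 CPM in late-stage TAMs. With no overlap, it fell by 0.73 on the log2 scale (SE 0.11, adjusted p = 0.00274). Alox5ap had 443, 422.3 and 360.1 CPM against 333.9, 337.5 and 344.8 CPM. Although each late-stage sample was lower, the log2 fold change of -0.27 (SE 0.08) did not pass the test (adjusted p = 0.0793), whereas DESeq2 (adjusted p = 0.0290) and the fit without early-stage replicate 3 (0.00512) called it.

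Lta4h had 93.3, 88.2 and 89.8 CPM in early-stage and 71, 84.7 and 77.7 CPM in late-stage TAMs. The late-stage samples were all lower, yet the log2 fold change of -0.22 (SE 0.08) did not pass the test (adjusted p = 0.136). Ltc4s had 13.3, 11.9 and 8.38 CPM in early-stage and 6.12, 4.57 and 5.74 CPM in late-stage TAMs. Again the groups did not overlap, and it fell by 1.03 on the log2 scale (SE 0.19, adjusted p = 0.00940), a call lost without early-stage replicate 2 (adjusted p = 0.0576) or late-stage replicate 2 (0.0542). The antisense gene Gm26542 had 0 to 25 counts in these 6 libraries, against 366 to 1098 for Ltc4s.

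Alox15 had 35, 16 and 37 counts in early-stage and 61, 58 and 54 counts in late-stage TAMs. The groups did not overlap, and the log2 fold change of 0.96 (SE 0.46) did not pass the test (adjusted p = 0.236). Alox12 was counted 3, 0 and 0 times in the early-stage samples and 0, 10 and 12 times in the late-stage samples and was not tested.

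Among the members called in both comparisons, Ptges was higher in AMPK-KO and lower at the late stage, and Alox5 and Ltc4s were lower in both. The comparisons share no samples, and the tables were scaled separately, so levels were not tested between them. Set side by side, WT and late-stage TAMs, both from day 15, had 38.9 ± 0.226 and 9.64 ± 0.474 CPM of Alox5 and 33 ± 2.83 and 5.47 ± 0.806 CPM of Ltc4s. These groups also differed in genotype label and, as given above, in Lyz2 and Y-linked counts, so they are not repeats of one condition. The plot of the members' fold changes shows both comparisons together.

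**Figure D3:**
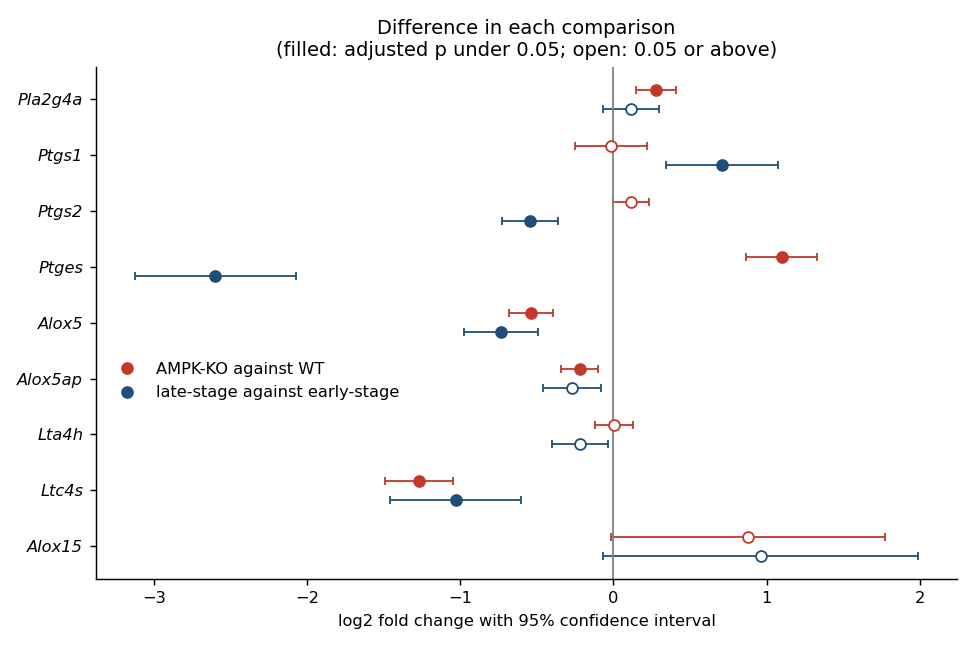
Log2 fold change of the 9 members tested, with its 95% confidence interval, in AMPK-KO against WT and in late-stage against early-stage TAMs. Filled points passed an adjusted p under 0.05. The Ptges points lie on opposite sides of 0 (1.10 and -2.60), and those of Alox5 and Ltc4s on the same side.

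The rest of the pathway was described from 5 lists with 71 symbols, of which 70 were in the tables and Ptgr3 was not matched. In AMPK-KO against WT, 28 of the 61 tested were called (45.9%), 14 higher and 14 lower, against 21.1% of all genes. The number was 17 without WT replicate 3. In late-stage against early-stage TAMs, 17 of 60 were called (28.3%), 7 higher and 10 lower, against 9.18% of all genes. That number was 8 without early-stage replicate 2, and 10, 10 and 7 without late-stage replicates 1, 2 and 3.

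Of 20 tested genes of arachidonate release and remodelling, 7 were called higher and 3 lower in AMPK-KO TAMs (50%, against 21.1% of all genes). Pla2g7, whose product hydrolyzes platelet-activating factor and oxidized phospholipids, rose by 0.65 on the log2 scale (adjusted p = 7.1e-06), with 243.4 ± 7.28 CPM in WT and 380.8 ± 13.5 CPM in AMPK-KO. Plaat3, a phospholipase gene (0.83, adjusted p = 1.7e-05), Lpcat2, which encodes an acyltransferase of platelet-activating factor synthesis (0.53, adjusted p = 6.1e-05), and Daglb, a diacylglycerol lipase gene (0.32, adjusted p = 6.8e-04), rose too. In late-stage TAMs, 4 of 20 were called higher and 2 lower (30%, against 9.18% of all genes). Pla2g7 here fell by 1.27 on the log2 scale, with 266.1 ± 13.5 CPM in early-stage and 110.2 ± 8.06 CPM in late-stage TAMs, and had the smallest adjusted p of the list (2.2e-05). Daglb (0.53, adjusted p = 0.00186), Lpcat2 (0.46, adjusted p = 0.00679) and the lysosomal phospholipase gene Pla2g15 (0.41, adjusted p = 0.00713) were higher, the last pair losing the call in some fits with 1 library left out.

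Of the 9 other prostanoid synthase genes, none was called higher and 5 were called lower in AMPK-KO TAMs (55.6%, against 21.1% of all genes). Hpgds, which encodes the hematopoietic prostaglandin D synthase, fell by 0.32 on the log2 scale, with 85.1 ± 0.778 CPM in WT and 68 ± 3.99 CPM in AMPK-KO (adjusted p = 0.00289). Akr1b3, an aldose reductase gene whose product can make PGF2α (-0.33, adjusted p = 0.00447), Ptges3, which encodes the p23 co-chaperone and cytosolic PGE synthase (-0.40, adjusted p = 0.00798), and the carbonyl reductase gene Cbr1 (-0.37, adjusted p = 0.0361) fell as well. How reads shared between copies were counted is not given, so the values of Ptges3 and Akr1b3, which have pseudogenes, are less certain. At the late stage Hpgds instead rose, from 69.2 ± 5.27 to 93.5 ± 7.14 CPM (0.44, adjusted p = 0.0139), with the thromboxane synthase gene Tbxas1 (0.27, adjusted p = 0.0375), while Prxl2b, a prostamide and PGF synthase gene, fell (-0.41, adjusted p = 0.0431). These were the 3 called of 9 (33.3%, against 9.18% of all genes).

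Among 14 genes of other lipoxygenases, leukotriene conversion and epoxides tested in AMPK-KO against WT, 2 were called higher and 4 lower (42.9%, against 21.1% of all genes). Cyp4f18, whose product inactivates leukotriene B4, rose by 0.91 on the log2 scale, with 73.7 ± 2.96 CPM in WT and 138.8 ± 6.1 CPM in AMPK-KO (adjusted p = 2.2e-06). Dpep2, a dipeptidase gene of the step from leukotriene D4 to E4, rose by 0.31 (adjusted p = 0.00302). The microsomal glutathione transferase gene Mgst3 (-0.47, adjusted p = 0.0187) and Ggt1, whose product converts leukotriene C4 to D4 (-1.17, adjusted p = 0.0333), fell. At the late stage 1 of 13 was called (7.69%, against 9.18% of all genes), the epoxygenase gene Cyp2j6, which fell from 12 ± 1.74 to 6.28 ± 0.933 CPM (-0.93, adjusted p = 0.00626).

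In the list of breakdown and transport, Ptgr1, whose product inactivates prostaglandins and leukotriene B4, fell in both comparisons. It went from 91.2 ± 7.2 to 40.1 ± 2.52 CPM in AMPK-KO against WT (log2 fold change -1.19, adjusted p = 2.3e-06) and from 76.6 ± 5.89 to 44.7 ± 2.84 CPM at the late stage (-0.78, adjusted p = 6.2e-04). Of the 7 tested, 1 was called higher and 2 lower in AMPK-KO TAMs (42.9%, against 21.1% of all genes). Besides Ptgr1, these were the exporter genes Abcc4 (0.51, adjusted p = 0.00265), which carries PGE2, and Abcc1 (-0.37, adjusted p = 0.00375), which carries leukotriene C4. At the late stage 2 of 7 were called (28.6%, against 9.18% of all genes), both lower. The second was Hpgd, the gene of the main prostaglandin-degrading dehydrogenase, at 3.81 ± 1.6 CPM in early-stage and 1.01 ± 0.0588 CPM in late-stage TAMs (-1.91, adjusted p = 0.00506).

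Of 11 receptor genes tested, 4 were called higher and none lower in AMPK-KO TAMs (36.4%, against 21.1% of all genes), and 1 was called higher and 4 lower at the late stage (45.5%, against 9.18%). Fpr2, which encodes a receptor for lipoxin A4 and formyl peptides, rose by 1.20 on the log2 scale in AMPK-KO TAMs, with 26.1 ± 1.98 CPM in WT and 60 ± 2.77 CPM in AMPK-KO (adjusted p = 2.1e-06). Ltb4r1, the gene of the high-affinity leukotriene B4 receptor, rose from 33.2 ± 2.4 to 52 ± 1.68 CPM (0.65, adjusted p = 9.6e-05), and Cysltr2, a cysteinyl leukotriene receptor gene (0.95, adjusted p = 0.00516), and Ptger2, which encodes the PGE2 receptor EP2 (0.40, adjusted p = 0.0453), were higher as well. At the late stage, Ltb4r1 fell from 35 ± 3.03 to 15.9 ± 2.02 CPM (-1.14, adjusted p = 4.4e-04) and the prostacyclin receptor gene Ptgir from 18.1 ± 2.18 to 6.78 ± 0.512 CPM (-1.42, adjusted p = 2.0e-04). Fpr2 was lower too (-0.45, adjusted p = 0.0225), and Ptger4, which encodes the PGE2 receptor EP4, was higher (0.35, adjusted p = 0.0181).

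Of the pathway genes named for AMPK-KO against WT, 14 of 19 passed the threshold in all 12 alternatives, the exceptions being Cbr1, Ggt1, Mgst3, Ptger2 and Ptges3 (largest adjusted p 0.143, 0.111, 0.0888, 0.174 and 0.0517). For the late stage 7 of 14 did, and Fpr2, Hpgds, Lpcat2, Pla2g15, Prxl2b, Ptger4 and Tbxas1 did not (0.112, 0.0828, 0.0519, 0.0514, 0.166, 0.0936 and 0.143). Across the 5 lists, 10 genes were called in both comparisons. Fpr2, Hpgds, Ltb4r1, Pla2g7 and Ptger2 changed in opposite directions, and Daglb, Lpcat2, Plaat3, Prxl2b and Ptgr1 in the same direction.

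**Figure D4:**
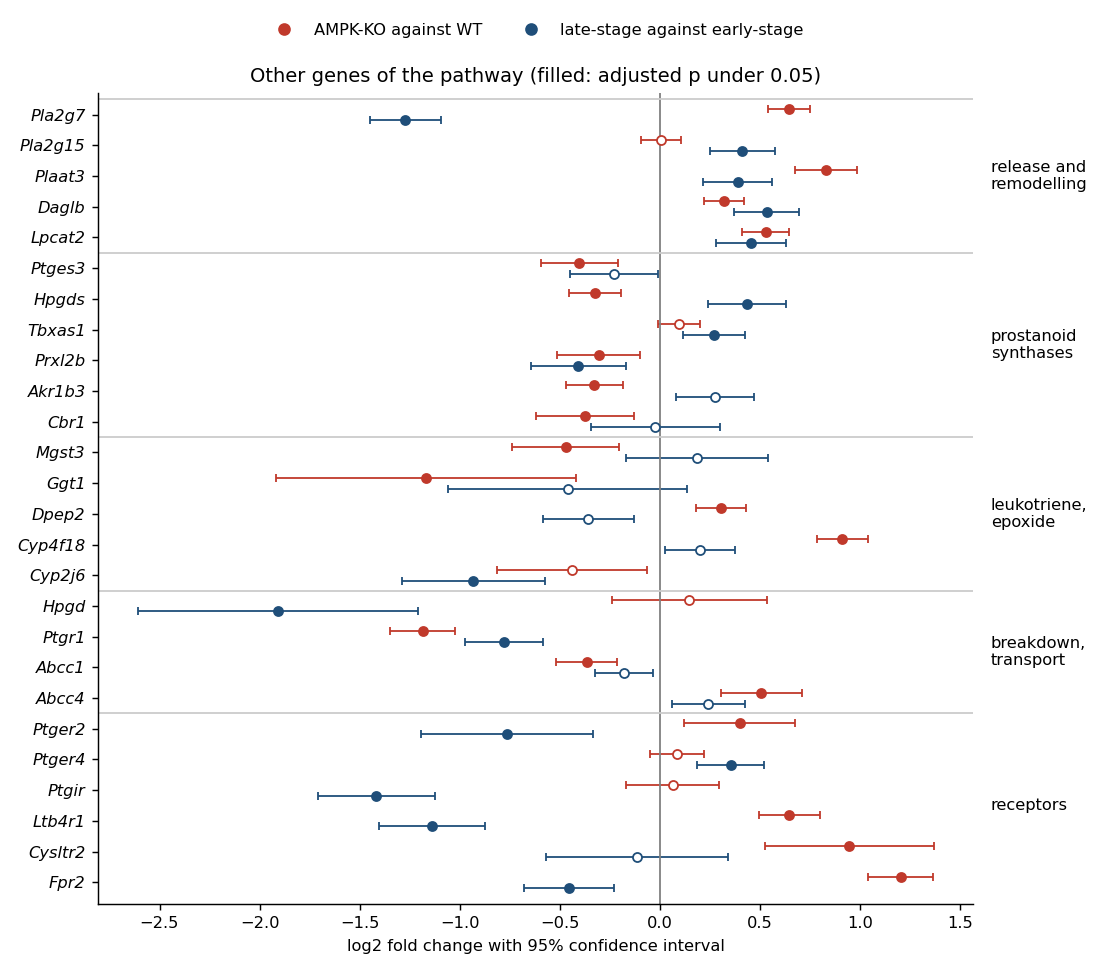
Log2 fold change with its 95% confidence interval for the named genes of the 5 pathway lists, in AMPK-KO against WT and in late-stage against early-stage TAMs, with filled points at an adjusted p under 0.05. Pla2g7 and Ltb4r1 lie right of 0 in AMPK-KO (0.65 and 0.65) and left of 0 at the late stage (-1.27 and -1.14).

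Markers of other cells moved in the same comparisons, and their part in the results was not tested. By the study's methods the sort gate left out Ly6C+ and Ly6G+ cells. Legends of its supplementary figures instead list TAMs as Ly6C+ and either Ly6G+ or Ly6G-. Monocyte markers, led by Ccr2, summed to 514.5 to 545.4 CPM in WT and 835 to 863 in AMPK-KO (3 of 6 called higher), and to 561.7 to 673.5 CPM in early-stage and 228 to 259.2 in late-stage TAMs (5 of 6 called lower). These are the directions of Ptges, Pla2g7, Ltb4r1 and Fpr2 in both comparisons. Neutrophil markers summed to 111.2 to 119.2 CPM in WT and 182.9 to 185.2 in AMPK-KO (4 of 6 higher), with Ly6g and Ngp at 0, and fell from 120.8 to 127.7 CPM to 103.6 to 109.4 at the late stage (2 of 5 lower). Most of the sum in WT and AMPK-KO was Csf3r (96.52 and 154.2 CPM), followed by Mmp8 (16.7 and 24.28). S100a8 (1.048 and 2.099 CPM) and S100a9 (0.6971 and 2.471) were low in both groups. Eosinophil markers, the list of a cell type known for Ltc4s, went from 20.8 to 21.1 CPM in WT to 47.2 to 51.1 in AMPK-KO (2 of 3 higher), against the direction of Ltc4s, and from 29.4 to 32.2 to 12.1 to 16.2 CPM at the late stage (2 of 4 lower, Epx at 0), with its direction. Ear2 was the most abundant of this list, at 15.3 CPM in WT and 43.59 in AMPK-KO, whereas Ccr3 was not called there (4.994 and 3.573 CPM). Prg2, Epx, Ear1, Ear6 and Il5ra had too few counts to be tested in AMPK-KO against WT. Basophil or mast cell markers summed to 10.7 to 13.4 CPM in WT and 22.8 to 25.8 in AMPK-KO (3 of 6 higher, Ms4a2 at 0), and to 8.16 to 11.4 and 6.23 to 9.79 CPM in early-stage and late-stage TAMs (none of 4 called). Kit, Hdc and Cd200r3 were those called in AMPK-KO. Tpsb2 (0.402 CPM in WT, 0.188 in AMPK-KO) and Mcpt4 (0.322 and 0.149) had lower means without a call. Cpa3 (65 counts in WT, 8 in AMPK-KO) and Fcer1a (21 and 0) were not tested.

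Platelet or megakaryocyte markers, of which Pf4 held the most counts, summed to 623.1 to 807.9 CPM in WT and 309.8 to 365.1 in AMPK-KO (2 of 6 lower), and to 434 to 600.1 and 234.4 to 262.1 CPM in early-stage and late-stage TAMs (2 of 5 lower). Pf4 and Ppbp were the genes called in AMPK-KO, while the other genes of the list were rarely counted. The list's median log2 fold change was 0.005 in AMPK-KO and 0.7 at the late stage. Melanoma markers fell in both comparisons, from 997.6 to 999.1 CPM to 675.9 to 715.6 in AMPK-KO (6 of 7 lower) and from 1662.2 to 1806.4 CPM to 766.4 to 1202.3 at the late stage (5 of 7 lower). Fibroblast markers went from 575.2 to 620.8 CPM to 747 to 828.3 in AMPK-KO (6 of 7 higher) and from 810.6 to 883.7 CPM to 396.5 to 560.7 at the late stage (3 of 7 lower). NK cell markers followed the same pattern, from 49.9 to 58.8 CPM to 134.3 to 140.8 (7 of 7 higher) and from 125.1 to 141.2 CPM to 61.7 to 76.5 (6 of 7 lower). T cell markers were called higher for 7 of 8 in AMPK-KO and for 4 of 8 at the late stage. Conventional dendritic cell markers were called higher for 7 of 7 in AMPK-KO, and at the late stage 2 of 7 were called higher and 1 lower, with a median log2 fold change of -0.17. B cell markers were lower in AMPK-KO (5 of 6, with 1 higher) and higher at the late stage (3 of 6), plasmacytoid dendritic cell markers were called lower in AMPK-KO for 2 of 5 and at the late stage for none, and endothelial markers were called higher for 2 of 5 and lower for 1 in AMPK-KO and lower for 1 of 6 at the late stage. Macrophage markers were called in both directions in both comparisons, 2 higher and 2 lower of 11 in AMPK-KO and 1 higher and 2 lower of 11 at the late stage.

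On GRCm38, Ptges (ENSMUSG00000050737.13) spans chr2:30889471-30929863 and Ptgs1 chr2:36230426-36252272. Pla2g4a (chr1:149829618-149961290) and Ptgs2 (chr1:150100031-150108227) lie 138.7 kb apart, and they were called in different comparisons, Pla2g4a higher in AMPK-KO and Ptgs2 lower at the late stage. Ltc4s (ENSMUSG00000020377.15) spans chr11:50236461-50238616, and Alox12 (chr11:70241457-70255353) and Alox15 (chr11:70344152-70352031) lie 88.8 kb apart on the same chromosome. Alox5 (ENSMUSG00000025701.12) is at chr6:116410077-116461178, Alox5ap at chr5:149264767-149288153 and Lta4h at chr10:93453411-93484875.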

How the data were processed

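Total RNA of sorted TAMs was sequenced, and the authors mapped reads with HISAT2 and counted them per gene with featureCounts, depositing raw counts in 1 table for each comparison. Tool versions, the strand setting and the handling of multiply mapped reads were not given in the sources used here. The submitters' notes name mm10 and GRCm38, and 54349 of 55401 identifiers matched GENCODE M21 with their version. Counts were tested with edgeR 4.0.16 in R 4.3.3 (filterByExpr, TMM, quasi-likelihood test, no covariates), each table on its own, with Benjamini-Hochberg adjustment over all genes tested. Levels are TMM-scaled CPM, per kilobase of the gene's merged exons between genes. The fit was tested on simulated data. Alternatives were other scalings and filters, DESeq2 1.42.0, a block for replicate numbers, and fits without 1 library. Members and lists were chosen with earlier results of these data known. Besides the 10 members, the text names up to 4 called genes with the smallest adjusted p from each pathway list in each comparison. Plots were drawn with matplotlib 3.10.9.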

Additional observations from a re-analysis of the deposited data

How the results depend on the processing

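Leaving out each library in turn gave 4 to 5 members called in AMPK-KO against WT and 3 to 6 in late-stage against early-stage TAMs, where the count was 3 without early-stage replicate 2 and 3 without late-stage replicate 2. Pathway genes called ranged from 17 to 25 and from 7 to 19. All genes called ranged from 2414 to 4039 and from 653 to 2835, and were 936 in the second comparison without a filter. The counts over all genes and the repeated fits of named pathway genes were added after seeing the data. The Lta4h log2 fold change in AMPK-KO, near 0, was -3e-04 with RLE factors, -0.0129 with upper-quartile factors, -0.0063 without a filter and between -0.0433 and 0.0296 with a library left out, and that of Ptgs1 ranged from -0.0678 to 0.064. Over all members' fold changes under these settings, 195 kept direction and side of the threshold, 11 lost the call, 2 gained it and 8 reversed, all of the latter for these 2 genes. The cause was not tested. Fits with a library left out hold fewer samples, and Lta4h also reversed in fits that kept all samples, with RLE or upper-quartile factors or without a filter. Deviations of same-numbered samples had correlations of 0.219, -0.034 and 0.037 in the first comparison and 0.05, -0.01 and 0.066 in the second. Some samples correlated best with their own number and others did not, and 3 samples a group cannot settle whether samples were paired. With the replicate block, 5 members were called in each comparison, with 27 and 17 pathway genes and 3862 and 1417 of all genes. With 3 samples a group, Alox12 and Alox15 were limited by their counts.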
